A study of Mus musculus with 32 samples.

Results

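Regulatory T cells (Treg) and conventional CD4 T cells (Tconv) of the control mouse liver were compared by RNA sequencing. The comparison rests on 3 libraries labelled control liver Treg and 3 labelled control liver Tconv, which are 6 of the 32 libraries of the series, chosen by their labels alone. All libraries came from male C57BL/6 mice of the Foxp3GFP genotype, in which a fluorescent reporter follows Foxp3. Cells were taken by flow sorting as TCRb+CD4+Foxp3+ (Treg) or TCRb+CD4+Foxp3- (Tconv). Set beside them were control spleen Treg and Tconv (3 libraries each), sorted with the same gates, and liver Treg and Tconv from mice of the same strain, sex and genotype that received CCl4 (5 libraries each), the hepatotoxic solvent carbon tetrachloride. The labels give no age, no vehicle for the controls and no dose or schedule for CCl4. Nor do they state whether each library had its own animal, so every p measures the spread between these samples, which may be technical. The gate admits every TCRb+CD4+ cell without Foxp3 as Tconv, including naive, memory and innate-like T cells.

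Treg are CD4 T cells that depend on the transcription factor Foxp3 and restrain immune responses, through CTLA-4, capture of interleukin 2 by CD25, and activation of TGF-beta. In organs outside the lymphoid system some of them carry the interleukin 33 receptor ST2 and release amphiregulin, a ligand of the epidermal growth factor receptor with known roles in tissue repair. The Foxp3-negative CD4 cells of the liver hold naive recirculating cells, effector and memory cells, and CD1d-restricted NKT cells that carry NK receptors.

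Levels are given as CPM, the share of a library's counts that falls on a gene, scaled between libraries by TMM factors and not divided by gene length. Values stand in the order of samples 1, 2 and 3. A gene was called where the adjusted p of edgeR's quasi-likelihood test, with Benjamini-Hochberg adjustment over 17159 genes, was under 0.05, and fold changes are log2 values of Treg against Tconv with an approximate standard error (SE). The 6 libraries held between 25996377 and 75292019 estimated counts. Treg control 1 stood apart. Its root mean square distance from the mean of the other libraries of its group was 0.534 on the log2 scale. For the other 5 libraries this distance was 0.323 to 0.416. The 13 listed genes of pancreatic acinar cells summed to 1859 CPM in Treg control 1 against 8.22 to 94.2 CPM elsewhere. On the first principal component, which held 71.8% of the variance of the 6 libraries, the cell types separated. In bulk RNA of this kind, fewer cells of a type and less RNA per cell cannot be told apart.

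Liver Treg and Tconv differed in a large share of the transcriptome. Of the 17159 genes, 2630 (15.3%) were higher in Treg and 3287 (19.2%) were lower, so that 34.5% were called. The counts of every gene list below are to be read beside these shares. Among called genes the rises were larger than the falls: the median log2 fold change was 1.09 among the called rises and -0.64 among the called falls, and 1422 genes (8.29%) rose by more than 2-fold while 846 (4.93%) fell by as much. The 2 sets differ in level: 1691 of the 2630 rises and 2948 of the 3287 falls had a mean of at least 5 CPM over the 6 libraries. There were 9838 genes of that level, so falls were a larger share of them than of all genes. Lists of abundant genes are to be read beside that larger share as well. Genes of low counts need larger changes to be called, and the part of this in the medians was not tested. More than 10-fold differences were found for 307 genes higher and 177 lower. Values of the 3 Treg and 3 Tconv libraries did not overlap for 7483 genes (43.6%), 20.9% with the higher values in Treg and 22.7% with the lower. Without Treg control 1, 2182 genes were higher and 2756 lower. The balance of directions depends on the genes used for scaling. Refitted on genes of at least 5 CPM alone, log2 fold changes moved up by a median of 0.109 over the 9871 genes in both fits, and 2329 of these were higher and 2291 lower, where 1698 and 2952 were called with all genes.

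**Figure D1:**
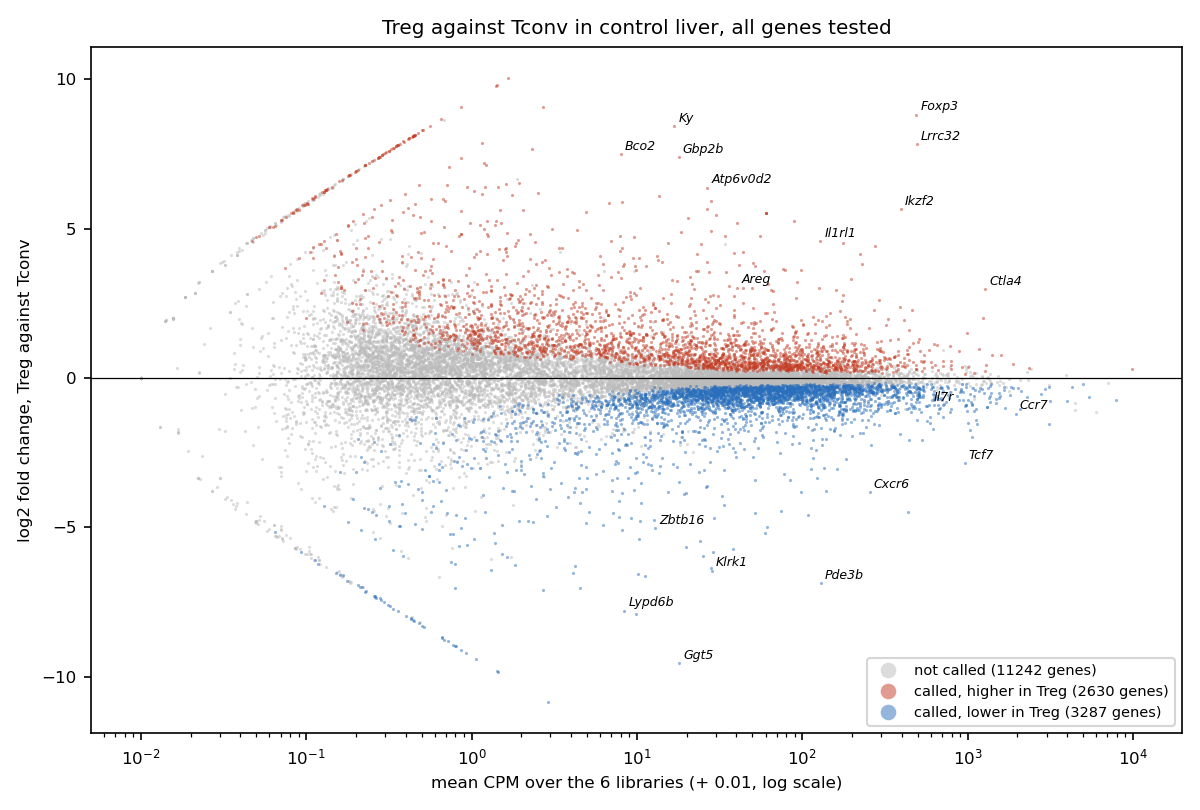
Each point is a gene, with its mean level over the 6 control liver libraries on the horizontal axis (CPM + 0.01, log scale) and its log2 fold change of Treg against Tconv on the vertical axis; red genes (2630) were called higher in Treg, blue genes (3287) lower. Labelled genes such as Foxp3, Lrrc32 and Ikzf2 lie far above the line and Ggt5 and Pde3b far below it, and the diagonal streaks hold genes with no counts in 1 cell type.

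Foxp3 defined the gate and so checks the labels rather than giving a result. It stood at 909, 1038 and 971 CPM in Treg and 2.96, 1.23 and 2.6 CPM in Tconv, and its Tconv mean was 0.233% of its Treg mean. The genes for the T cell receptor complex were abundant in every library: Cd3e, a chain of CD3, lay between 605 and 639 CPM in Treg and between 726 and 810 CPM in Tconv, and Cd4 between 495 and 547 CPM and between 739 and 845 CPM. Both were lower in Treg, with log2 fold changes of -0.32 ± 0.08 for Cd3e and -0.59 ± 0.08 for Cd4 (adjusted p = 0.00341 and 5.76e-07, edgeR).

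The largest rises in liver Treg, by log2 fold change among called genes of at least 5 CPM with no overlap, were Foxp3, Ky, Lrrc32, Bco2, Gbp2b, Atp6v0d2, Frmd5, Ccr3, Ednrb, Cep112, Ikzf2 and Itgb8. Lrrc32 (chr7:98489283-98502181, plus strand, GRCm38) encodes GARP, which holds latent TGF-beta on the Treg surface. It was found at 855, 973 and 1115 CPM in Treg and 5.28, 4.37 and 3.49 CPM in Tconv, a log2 fold change of 7.83 ± 0.31 (adjusted p = 1.17e-17). Ikzf2 (chr1:69531214-69687245, minus strand) encodes Helios, an Ikaros family factor of Treg, and stood at 871, 774 and 671 CPM in Treg and 13.2, 13.5 and 19.1 CPM in Tconv, 5.66 ± 0.23 on the log2 scale (adjusted p = 1.29e-17). For both genes, as for Foxp3, no Tconv library came near a Treg library.

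The other large rises were from lower levels. Ky, named for the kyphoscoliosis mutation, a gene best known from skeletal muscle, was at 34.4, 37 and 29.1 CPM in Treg and 0.325, 0.0725 and 0 CPM in Tconv (8.45 ± 0.52, adjusted p = 1.25e-12). Atp6v0d2, a subunit of the vacuolar proton pump, was at 51.2, 49.8 and 56.7 CPM in Treg and 0.244, 0.363 and 1.17 CPM in Tconv (6.38 ± 0.62). Ccr3, the eotaxin receptor, was at 46.1, 57.6 and 62 CPM in Treg and 1.46, 0.986 and 0.402 CPM in Tconv (5.94 ± 0.55, adjusted p = 1.2e-09). Each of these 3 genes was low in Tconv and clearly present in all Treg libraries. Ky came nearest to the floor of 3 counts per library, which was 0.122, 0.0435 and 0.0549 CPM in Tconv. Its value in Tconv control 3 was under that floor, so the size of its rise is uncertain.

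The interferon-inducible GTPase gene Gbp2b stood at 23.7, 37.3 and 45.2 CPM in Treg and 0.893, 0 and 0.0732 CPM in Tconv (7.39 ± 0.77), the carotenoid-cleaving enzyme gene Bco2 at 17.1, 15.7 and 14.7 CPM in Treg and 0.365, 0.029 and 0 CPM in Tconv (7.51 ± 0.70), and Frmd5 at 31, 27.6 and 22.3 CPM in Treg and 0.122, 0.711 and 0.183 CPM in Tconv (6.09 ± 0.49). Ednrb, the endothelin B receptor, was at 8.1, 24.3 and 15.1 CPM in Treg and 0.568, 0.145 and 0.22 CPM in Tconv (5.90 ± 0.60), and its Treg values spread widely. Cep112, which encodes a centrosomal protein, was at 13.5, 15.3 and 11.2 CPM in Treg and 0.284, 0.392 and 0 CPM in Tconv (5.87 ± 0.58). Gbp2b has close relatives in its gene cluster, so reads shared with them could have been assigned to either.

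**Figure D2:**
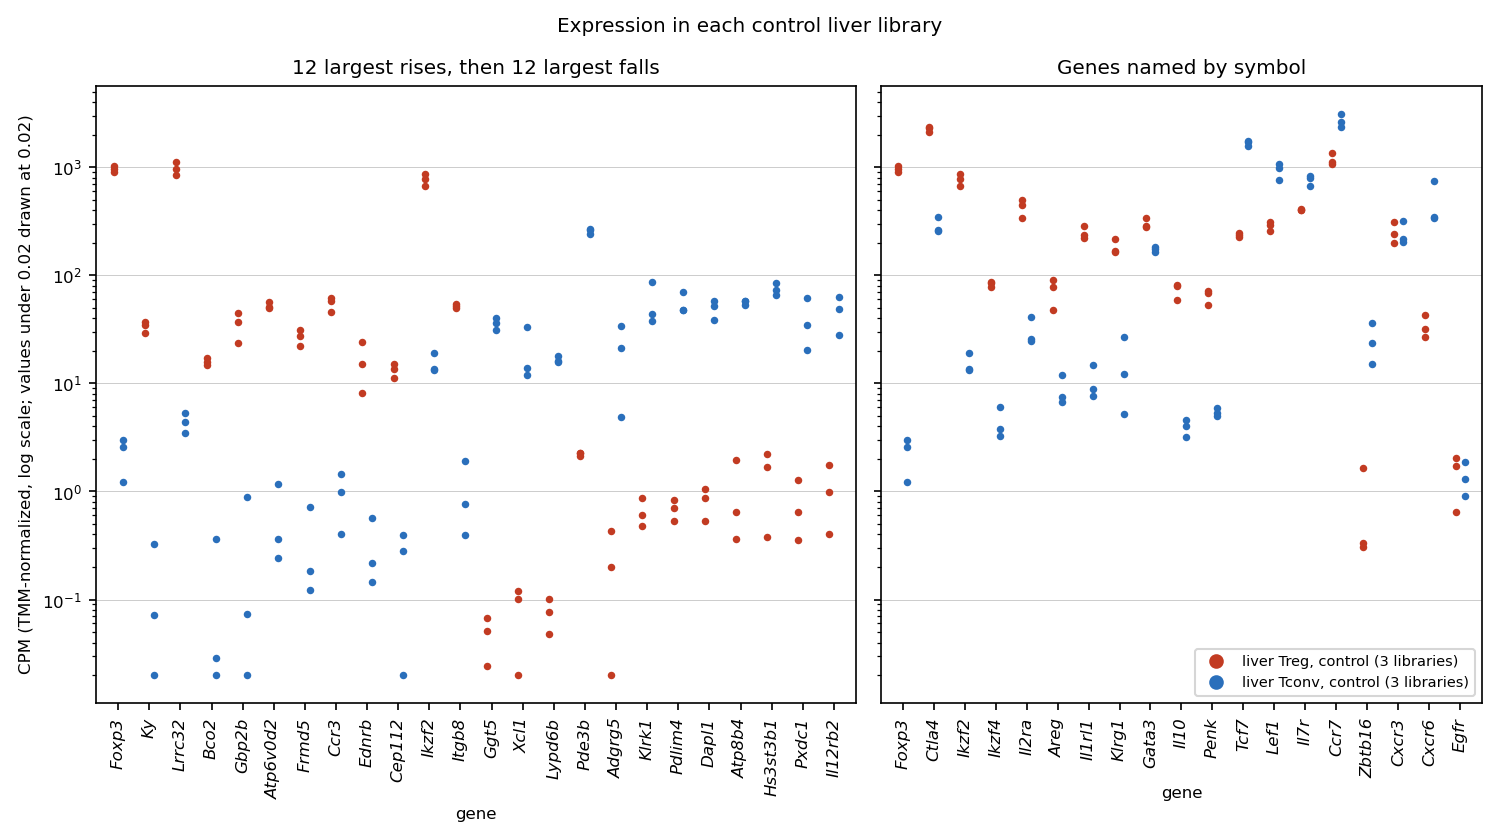
Points are the TMM-normalized CPM of single libraries on a log axis (values under 0.02 drawn at 0.02), red for the 3 Treg and blue for the 3 Tconv control liver libraries. The left panel holds the 12 largest rises and 12 largest falls and the right panel the genes named by symbol; the colours overlap only for Cxcr3 and Egfr.

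Genes of Treg identity and suppression were higher as a group. Of 20 members tested, 18 were called higher and 0 lower, with a median log2 fold change of 2.84, against 15.3% higher and a median of 0 over all genes. Foxp3, itself a member, set the gate. Ctla4 (chr1:60887000-60915832, plus strand), the inhibitory receptor that strips CD80 and CD86 from other cells, stood at 2289, 2340.4 and 2138 CPM in Treg and 261, 348 and 256 CPM in Tconv, a log2 fold change of 2.97 ± 0.20 (adjusted p = 1.94e-12). Il2ra, the CD25 chain of the interleukin 2 receptor, stood at 337, 449 and 497 CPM in Treg and 24.4, 40.8 and 25.7 CPM in Tconv (3.81 ± 0.28, adjusted p = 1.03e-11). Tconv held both transcripts, though no Tconv library reached a Treg value.

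Ikzf4, which encodes the Ikaros family factor Eos, was at 77.6, 84.4 and 86.9 CPM in Treg and 3.25, 3.79 and 6.11 CPM in Tconv (4.22 ± 0.21). Il10, the gene for the suppressive cytokine interleukin 10, was at 79.2, 80.6 and 58.9 CPM in Treg and 3.17, 4.54 and 4.01 CPM in Tconv, with a wider error (4.20 ± 0.77, adjusted p = 8.14e-05). Gpr83, an orphan G protein-coupled receptor used as a Treg marker, was at 85, 82.3 and 116 CPM in Treg and 8.73, 5.8 and 5.6 CPM in Tconv (3.84 ± 0.20). All 3 genes were separated between the cell types in every library. The only members not called were Socs2, a cytokine signalling inhibitor (0.54 ± 0.28, adjusted p = 0.129), and Fgl2, a secreted fibrinogen-like protein (0.73 ± 0.45, adjusted p = 0.222). Library values overlapped for Fgl2 and did not for Socs2.

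Genes known from Treg of non-lymphoid tissues and from repair were also mostly higher in liver Treg: 17 of 20 were called higher, 2 lower and 1 was not called, with a median of 1.83. Over all genes the shares were 15.3% higher and 19.2% lower. Il1rl1 (chr1:40429570-40465415, plus strand), which encodes ST2, stood at 223, 234 and 284 CPM in Treg and 14.8, 8.92 and 7.68 CPM in Tconv (4.59 ± 0.35, adjusted p = 2.91e-11). Areg (chr5:91139599-91148432, plus strand), the amphiregulin gene named in the title of the series, stood at 77.4, 91.4 and 47.8 CPM in Treg and 6.74, 12.1 and 7.43 CPM in Tconv (3.03 ± 0.42, adjusted p = 1.72e-06). Itgav, the integrin alpha V chain, stood at 311, 290.3 and 319.5 CPM in Treg and 47.9, 46 and 39.9 CPM in Tconv (2.78 ± 0.18, adjusted p = 6.86e-13). Treg control 3 was the lowest Treg library for Areg and still lay far above every Tconv library.

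Klrg1, an inhibitory receptor of terminally differentiated lymphocytes, was at 167, 217 and 164 CPM in Treg and 12.1, 27 and 5.18 CPM in Tconv (3.61 ± 0.53). Penk, the precursor of enkephalins, was at 67.9, 71 and 52.8 CPM in Treg and 5.03, 5.9 and 5.34 CPM in Tconv (3.55 ± 0.42). Gata3, a transcription factor of type 2 helper cells and of tissue Treg, had a smaller difference, at 284, 336 and 282 CPM in Treg and 166, 183 and 174 CPM in Tconv (0.79 ± 0.13, adjusted p = 1.89e-05). The 2 members that were lower were Cxcr6, described with the Tconv genes, and Id2, an inhibitor of DNA binding (-0.54 ± 0.20, adjusted p = 0.0357), and Irf4 was the member not called (0.48 ± 0.28, adjusted p = 0.191).

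The Il1rl1 gene has a distal and a proximal start, and the transcripts annotated from the distal start or from bases downstream of the proximal one were higher in Treg. In the deposited TPM, which are also divided by transcript length, Il1rl1-205, a 1216-base transcript that begins at the distal start (chromosome 1, base 40429570), stood at 49.3, 43.5 and 48.4 TPM in Treg and 2.54, 1.57 and 2.28 TPM in Tconv. Il1rl1-201, the 5053-base transcript that begins at base 40440628, downstream of the proximal RefSeq start at base 40439629, stood at 45.3, 49.7 and 71.4 TPM in Treg and 2.83, 1.93 and 1.39 TPM in Tconv. The distal transcript made up 38.3% of the gene's TPM in Treg and 45.3% in Tconv on average, so reads were assigned to distal and other transcripts in both cell types. Such shares do not mark where transcripts start, and use of either start was not tested. Shares of short and long transcripts depend on how reads that fit several of them were divided. The 250 bases before each RefSeq start (GRCm38.p6, plus strand) are shown because the gene has both starts annotated. Capitals mark TGTTTAC, a forkhead core, or TGTGGT, a RUNX core, on either strand.
Il1rl1 distal promoter, chr1:40429320-40429569: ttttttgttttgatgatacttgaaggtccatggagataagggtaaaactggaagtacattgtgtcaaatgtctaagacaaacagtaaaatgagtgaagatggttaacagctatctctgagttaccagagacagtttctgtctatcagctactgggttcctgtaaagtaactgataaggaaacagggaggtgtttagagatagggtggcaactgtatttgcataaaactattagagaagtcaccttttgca
Il1rl1 proximal promoter, chr1:40439379-40439628: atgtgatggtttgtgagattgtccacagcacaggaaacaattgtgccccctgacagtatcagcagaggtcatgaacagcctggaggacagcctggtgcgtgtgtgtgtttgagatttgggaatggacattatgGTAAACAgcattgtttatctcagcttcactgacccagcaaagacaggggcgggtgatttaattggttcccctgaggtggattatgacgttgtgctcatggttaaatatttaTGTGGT
The proximal window held a forkhead core on the minus strand, 117 bases before the start, and a RUNX core 6 bases before it, while the distal window held neither. A forkhead core was present in the same 250-base window of 2.91% of 12109 genes with a RefSeq promoter, in 3.5% of those more than 2-fold higher in Treg and in 3.4% of those more than 2-fold lower. For the RUNX core the shares were 13.5%, 15.6% and 13.1%.

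**Figure D3:**
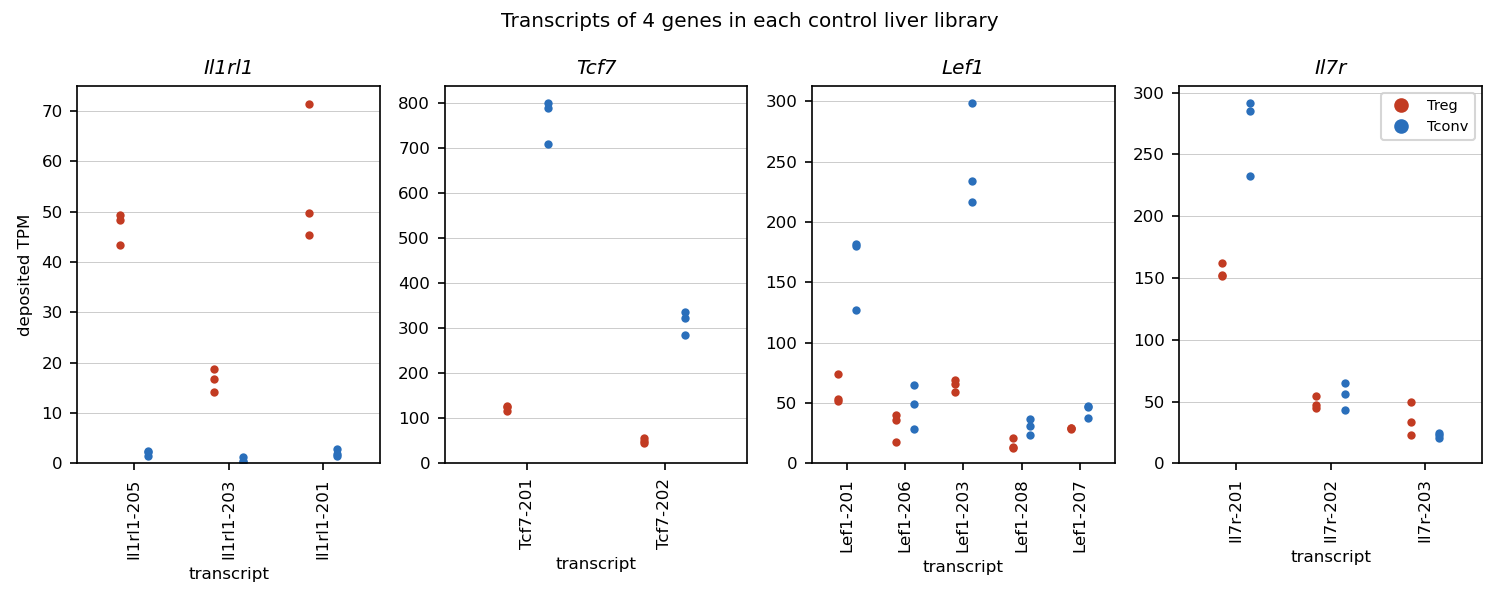
Deposited TPM of the transcripts of Il1rl1, Tcf7, Lef1 and Il7r in each control liver library, red for Treg and blue for Tconv, on linear axes that differ between panels. All 3 Il1rl1 transcripts lie higher in Treg and both Tcf7 transcripts higher in Tconv, while the Lef1 and Il7r differences are largest for Lef1-203, Lef1-201 and Il7r-201.

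Genes for ligands and receptors of the epidermal growth factor family and other growth factors were mostly not called: 4 of 18 were higher, 0 lower and 14 not called, where 15.3% of all genes were higher. Besides Areg, the called members were Erbb3 and Erbb2, which encode receptors of this family, and Hgf, hepatocyte growth factor. Erbb3 was at 29.8, 34.5 and 35.3 CPM in Treg and 9.25, 10.5 and 7.74 CPM in Tconv (1.85 ± 0.19, adjusted p = 1.02e-08), and Erbb2 at 11.7, 14.6 and 12.2 CPM in Treg and 0.568, 1.09 and 1.92 CPM in Tconv (3.40 ± 0.67). Hgf was called at very low levels that overlapped, at 0.0759, 1.13 and 1.31 CPM in Treg and 0.0812, 0 and 0 CPM in Tconv. Egfr, the receptor for amphiregulin, was at 1.72, 0.651 and 2.02 CPM in Treg and 1.3, 1.86 and 0.915 CPM in Tconv, values that overlapped and were not called (0.10 ± 0.48, adjusted p = 0.896).

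Among costimulatory receptors of the TNF receptor family, 6 of 13 were higher and 2 lower, against 15.3% and 19.2% of all genes. The leading 3 by adjusted p were the classical Treg members. Tnfrsf9, which encodes 4-1BB, stood at 511, 551 and 509 CPM in Treg and 21.7, 24.8 and 26.5 CPM in Tconv (4.42 ± 0.20, adjusted p = 4.97e-16). Tnfrsf4, encoding OX40, stood at 784, 831 and 691 CPM in Treg and 135, 183 and 153 CPM in Tconv (2.29 ± 0.16), and Tnfrsf18, encoding GITR, between 578 and 736 CPM in Treg and between 193 and 250 CPM in Tconv (1.61 ± 0.11). The members called lower were Tnfrsf1a, the receptor TNFR1 with a death domain (-1.73 ± 0.16, adjusted p = 7.83e-10), and Tnfrsf26 (-0.77 ± 0.15, adjusted p = 0.000192).

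The CD28 family and coinhibitory receptors divided between the cell types, with 8 of 15 higher in Treg, 7 lower and 0 not called. Over all genes 15.3% were higher and 19.2% lower. Icos, an inducible costimulator, stood at 1607, 1698 and 1353 CPM in Treg and 735, 831 and 799.7 CPM in Tconv (0.98 ± 0.11, adjusted p = 4.08e-08). Cd96, a receptor for the poliovirus receptor family shared with NK cells, went the other way, at 121, 137 and 146 CPM in Treg and 248, 274 and 266 CPM in Tconv (-0.97 ± 0.10, adjusted p = 7.17e-09). Cd200, a ligand for an inhibitory myeloid receptor, was at 41.3, 51.8 and 59.2 CPM in Treg and 19.9, 20.3 and 25.7 CPM in Tconv (1.20 ± 0.15). The higher members also included the coinhibitory genes Tigit (1.95 ± 0.28), Pdcd1 (1.35 ± 0.32), Havcr2 (2.97 ± 0.72) and Lag3 (1.88 ± 0.65), and the lower ones Cd226 (-1.55 ± 0.23), Cd160 (-3.88 ± 0.58) and Cd28 itself (-0.33 ± 0.08).

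Receptors of the common gamma chain family and genes of the interleukin 2 response showed no shared direction. Of 18, 3 were higher and 7 lower, against 15.3% and 19.2% of all genes, and 8 were not called, with a median of -0.01. With the sample number as a block, or without Tconv control 2, 5 were higher, and in the fit of genes of at least 5 CPM the median was 0.0951. Alongside Il2ra, Il9r, the interleukin 9 receptor, was higher, at 53.1, 45.2 and 45.4 CPM in Treg and 10.7, 11.5 and 15.5 CPM in Tconv (1.93 ± 0.23). Socs3, a feedback inhibitor of STAT3 signalling, was lower, at 194, 197 and 229 CPM in Treg and 501, 395 and 442 CPM in Tconv (-1.11 ± 0.12, adjusted p = 1.08e-08). Il7r, the CD127 chain that is used as a marker low on Treg, stood at 406, 411 and 404 CPM in Treg and 803, 668 and 822 CPM in Tconv (-0.91 ± 0.15, adjusted p = 2.37e-05). The other chains of the interleukin 2 receptor were not called, Il2rb at 0.42 ± 0.21 and Il2rg at -0.09 ± 0.08 (adjusted p = 0.121 and 0.432).

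Of 14 genes of interleukin 1 family receptors and their signalling, 5 were higher and 6 lower, against 15.3% and 19.2% of all genes. Without Treg control 1 or Tconv control 2, 4 were lower. Irak2, a kinase of this pathway, rose with Il1rl1, at 111, 134 and 128 CPM in Treg and 63.4, 74.3 and 65.5 CPM in Tconv (0.87 ± 0.12). Il1rl2, the interleukin 36 receptor, was lower, at 1.67, 0.892 and 0.572 CPM in Treg and 18.6, 12.1 and 14.7 CPM in Tconv (-3.83 ± 0.63, adjusted p = 2.06e-05). Il1r2, a decoy receptor for interleukin 1, was among the higher members (2.34 ± 0.45, adjusted p = 0.000134), and both chains of the interleukin 18 receptor, Il18r1 (-0.56 ± 0.22) and Il18rap (-1.37 ± 0.24), were lower.

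Chemokine and egress receptors separated the cells in both directions, with 8 of 18 higher, 6 lower and 4 not called. The shares of all genes were 15.3% higher and 19.2% lower. Besides Ccr3, Ccr8, a receptor of tissue Treg, was higher, at 216, 247 and 212 CPM in Treg and 55.7, 56.6 and 47.5 CPM in Tconv (2.08 ± 0.25, adjusted p = 1.92e-07). Cxcr6, the receptor for CXCL16 that marks liver-resident T and NKT cells, was lower, at 27, 42.7 and 31.7 CPM in Treg and 339, 745 and 348 CPM in Tconv (-3.82 ± 0.40, adjusted p = 1.02e-08). Cxcr3, a receptor of type 1 effector cells, overlapped between the groups, at 241, 313 and 197 CPM in Treg and 202, 318 and 218 CPM in Tconv (0.03 ± 0.21, adjusted p = 0.942). For Cxcr6 and Cxcr3 the second Tconv library was the highest of the 6.

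Integrins and selectin ligands gave 7 of 18 higher and 4 lower, against 15.3% and 19.2% of all genes. The 3 of smallest adjusted p were Itgav, Itgb8, its partner in the integrin that releases active TGF-beta, and Itgae, the CD103 chain that binds E-cadherin. Itgae stood at 252, 409 and 347 CPM in Treg and 12.7, 20.6 and 10.4 CPM in Tconv (4.52 ± 0.35, adjusted p = 2.84e-11), and Itgb8 at 52.5, 49.5 and 54.5 CPM in Treg and 0.771, 0.392 and 1.92 CPM in Tconv (5.65 ± 0.55, adjusted p = 3.68e-09). Itgb7, the partner of Itgae, differed by far less (0.47 ± 0.10, adjusted p = 0.000503).

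In the list of TGF-beta presentation and response, 5 of 19 genes were higher and 9 lower, against 15.3% and 19.2% of all genes. The median was -0.22. Lrrc32, Itgav and Itgb8 made up 3 of the 5 rises, the others being Tgfbr1 (0.93 ± 0.18) and Nrros (0.58 ± 0.12). Tgfbr2, the ligand-binding receptor chain, was lower, at 158, 158 and 195 CPM in Treg and 769.5, 696 and 669 CPM in Tconv (-2.06 ± 0.12, adjusted p = 9e-14). Also lower were the co-receptor Tgfbr3 (-4.97 ± 0.37), the signal transducers Smad2 (-0.54 ± 0.09) and Smad4 (-0.76 ± 0.11), the inhibitory Smad7 (-1.12 ± 0.17), and Tgfb1 itself (-0.34 ± 0.12, adjusted p = 0.0236).

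Of 24 Ikaros family and other Treg transcription factors, 8 were higher and 8 lower, against 15.3% and 19.2% of all genes, and 8 were not called. Within the Ikaros family the members diverged: Ikzf2, Ikzf4 and Ikzf3 (1.02 ± 0.14) were higher, Ikzf1 was lower (-1.11 ± 0.13), and Ikzf5 was not called (0.07 ± 0.12). Satb1, a chromatin organiser of T cells, was lower, at -1.98 ± 0.17 (adjusted p = 4.71e-10). Of the lower factors, Bach2 (-1.62 ± 0.24) and Myb (-1.38 ± 0.25) are known from resting and naive-like T cells.

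The largest falls, that is the genes highest in Tconv relative to Treg, were Ggt5, Xcl1, Lypd6b, Pde3b, Adgrg5, Klrk1, Pdlim4, Dapl1, Atp8b4, Hs3st3b1, Pxdc1 and Il12rb2. Ggt5 (chr10:75589340-75617200, plus strand), a gamma-glutamyltransferase that converts leukotriene C4 to D4, stood at 0.0506, 0.0241 and 0.0673 CPM in Treg and 31.5, 36.6 and 39.9 CPM in Tconv (-9.54 ± 0.56, adjusted p = 1.52e-13). Its Treg values lay under the floor of 3 counts per library (0.0759, 0.0723 and 0.101 CPM), so the size of its fall is uncertain. Pde3b (chr7:114415281-114539251, plus strand), a phosphodiesterase that degrades cyclic AMP, stood at 2.13, 2.27 and 2.29 CPM in Treg and 262, 241 and 268 CPM in Tconv (-6.85 ± 0.33, adjusted p = 1.73e-15). Every Tconv library lay far above every Treg library for both genes, and the Tconv values were close to each other.

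Lypd6b, a small surface protein gene of the Ly6 family, was at 0.0759, 0.0482 and 0.101 CPM in Treg and 15.9, 18.1 and 16.1 CPM in Tconv (-7.78 ± 0.66). Pdlim4, which encodes a PDZ and LIM domain protein, was at 0.531, 0.699 and 0.842 CPM in Treg and 48.2, 48 and 70.9 CPM in Tconv (-6.35 ± 0.40), and Atp8b4, a phospholipid flippase gene, at 1.97, 0.362 and 0.64 CPM in Treg and 53.5, 58.5 and 57.8 CPM in Tconv (-5.81 ± 0.51). Hs3st3b1, a heparan sulfate sulfotransferase, was at 0.38, 1.69 and 2.22 CPM in Treg and 84.9, 73.5 and 65.3 CPM in Tconv (-5.73 ± 0.46). In each of these 4 genes every Tconv library lay above every Treg library. The Treg values of Lypd6b lay at or under the floor, so the size of its fall is uncertain.

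Adgrg5, an adhesion receptor, was at 0.43, 0 and 0.202 CPM in Treg and 4.91, 33.8 and 21.1 CPM in Tconv (-6.56 ± 1.20), and Pxdc1 at 0.354, 1.28 and 0.64 CPM in Treg and 20.5, 61.1 and 34.7 CPM in Tconv (-5.66 ± 0.64). Xcl1 (chr1:164931644-164935527, minus strand), the chemokine lymphotactin, was at 0.101, 0.121 and 0 CPM in Treg and 12.1, 33.3 and 14 CPM in Tconv (-7.90 ± 0.89, adjusted p = 5.11e-08). Klrk1 (chr6:129610323-129623864, minus strand), which encodes the activating receptor NKG2D, was at 0.607, 0.482 and 0.875 CPM in Treg and 38.1, 86.7 and 43.8 CPM in Tconv (-6.44 ± 0.61, adjusted p = 1.93e-09). For these 4 genes Tconv control 2 was the highest library. The Treg values of Xcl1 were near the floor, so the size of its fall is uncertain.

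Genes of naive and recirculating T cells were mostly lower in liver Treg: 12 of 16 were lower, 2 higher and 2 not called, with a median of -1.12, against 19.2% lower among all genes. Tcf7 (chr11:52252371-52283014, minus strand), which encodes TCF-1, stood at 245, 226 and 235 CPM in Treg and 1730.5, 1564 and 1746 CPM in Tconv (-2.83 ± 0.11, adjusted p = 3.9e-18). Dapl1, a gene of quiescent naive T cells, stood at 0.531, 0.868 and 1.04 CPM in Treg and 51.5, 38.7 and 57.9 CPM in Tconv (-5.94 ± 0.34, adjusted p = 5.59e-14). Actn1, an actin crosslinker, stood at 18.4, 22.6 and 24.4 CPM in Treg and 117, 101 and 155 CPM in Tconv (-2.51 ± 0.19). No library of either cell type overlapped for these 3 genes.

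Lef1, the partner of TCF-1, was at 290.1, 258 and 315 CPM in Treg and 985, 763 and 1067 CPM in Tconv (-1.71 ± 0.16), and Ccr7, the lymph node homing receptor, at 1077, 1129 and 1369 CPM in Treg and 2649, 2369 and 3109.9 CPM in Tconv (-1.18 ± 0.20). Foxp1, a forkhead factor, was not called (-0.22 ± 0.13, adjusted p = 0.202). The 2 members that were higher in Treg were Igf1r, the receptor for insulin-like growth factor (1.28 ± 0.18), and Foxo1, a factor that maintains naive T cells (0.58 ± 0.09, adjusted p = 5.5e-06).

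Each annotated Tcf7 transcript made up nearly the same share of the gene in Treg as in Tconv. Tcf7-201 made up 71.0% of the gene's TPM in Treg and 70.9% in Tconv, with Tcf7-202 holding the remaining 29.0% and 29.1%. For Lef1, the coding transcript Lef1-203 held 31.5% in Treg and 45.5% in Tconv, and for Il7r the coding transcript Il7r-201 held 64.0% and 76.3%. The shares are means of 3 libraries and were not tested.

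Type 1 helper genes were higher in Tconv. Of 14, 11 were lower in Treg, 1 higher and 2 not called, with a median of -2. Over all genes 19.2% were lower and 15.3% higher. Fasl, the death ligand, stood at 15.9, 12 and 10.8 CPM in Treg and 169.7, 239 and 142 CPM in Tconv (-3.83 ± 0.28, adjusted p = 1.37e-11). Tbx21, which encodes the type 1 master factor T-bet, stood at 17.2, 36 and 19.8 CPM in Treg and 146, 316 and 139 CPM in Tconv (-3.04 ± 0.37, adjusted p = 1.98e-07). Il12rb2, a chain of the interleukin 12 receptor, stood at 1.75, 0.989 and 0.404 CPM in Treg and 49.1, 63.1 and 28.2 CPM in Tconv (-5.45 ± 0.71, adjusted p = 5.29e-07). Interferon gamma (Ifng, -4.59 ± 0.68) and interleukin 2 (Il2, -7.10 ± 1.06) were among the lower genes, and the sole member higher in Treg was Il12rb1 (0.62 ± 0.24, adjusted p = 0.0471).

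Cytotoxic granule and chemokine genes were likewise mostly higher in Tconv, with 10 of 14 lower in Treg and a median of -2.21. The share lower among all genes was 19.2%. Serpinb9, an inhibitor of granzyme B, was at 28.4, 38.8 and 27 CPM in Treg and 167, 279.8 and 152 CPM in Tconv (-2.67 ± 0.22, adjusted p = 1.81e-10). Ctsw, the cathepsin of cytotoxic lymphocytes, was at 38.6, 48 and 52.6 CPM in Treg and 171, 292 and 192 CPM in Tconv (-2.24 ± 0.22), and Prf1, perforin, at 12.2, 14.9 and 11.8 CPM in Treg and 52.6, 68.4 and 56.7 CPM in Tconv (-2.19 ± 0.22). Granzymes did not move together: Gzmk (-5.40 ± 0.66) and Gzma (-2.25 ± 0.54) were lower in Treg, Gzmc was higher (1.36 ± 0.36), and Gzmb was not called (0.68 ± 0.47, adjusted p = 0.276).

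Receptors and factors of NKT-like and innate-like T cells made the list with the lowest median. Of 18 members, 13 were lower in Treg, 1 higher and 4 not called, with a median of -3.86, unchanged when genes at 0 in all Treg libraries are set at their bound. The shares among all genes were 19.2% lower and 15.3% higher. Zbtb16, which encodes the innate-like T cell factor PLZF, was at 0.304, 1.64 and 0.337 CPM in Treg and 15.1, 36.3 and 23.8 CPM in Tconv (-5.02 ± 0.82, adjusted p = 1.85e-05). Klrd1, encoding CD94, was at 0.202, 0.844 and 0.303 CPM in Treg and 11.6, 17.3 and 18.3 CPM in Tconv (-5.10 ± 0.52, adjusted p = 8.63e-09). Trav11, the segment used by invariant NKT receptors, was at 2.71, 1.47 and 1.95 CPM in Treg and 18.2, 46 and 22.2 CPM in Tconv (-3.82 ± 0.82). Tconv control 2 was again the highest for Zbtb16 and Trav11, and without it 13 of the 18 members were still called lower.

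The Ly49 receptor genes Klra1, Klra3, Klra7 and Klra9 and the NKR-P1 gene Klrb1b had 0 CPM in all 3 Treg libraries. Taking 3 counts per library as the floor, Tconv levels were at least 69.8-fold higher for Klra1, 19.1-fold for Klra3, 18.5-fold for Klra7, 16.2-fold for Klra9 and 20.6-fold for Klrb1b. The Klra genes are close copies, so reads may have been split among them. Of 11 NK cell and ILC1 genes tested, 8 were lower in Treg and 3 not called, against 19.2% lower among all genes. Klrb1c, which encodes NK1.1, was at 0.101, 0 and 0.168 CPM in Treg and 6.25, 10.1 and 7.92 CPM in Tconv (-6.53 ± 0.80, adjusted p = 2.12e-07), and Klre1 at 0.962, 0.458 and 0.707 CPM in Treg and 2.03, 6.87 and 4.65 CPM in Tconv (-2.67 ± 0.54). Ncr1, a defining NK receptor, and Klra8 and Klra4 fell below the filter on low counts, and the gate required the T cell receptor beta chain.

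The constant genes of the T cell receptor gamma locus, Tcrg-C2, Tcrg-C4 and Tcrg-C1, were also lower in Treg. Tcrg-C2 was at 0.152, 0.217 and 0.303 CPM in Treg and 10.6, 35.7 and 20.1 CPM in Tconv (-6.64 ± 0.67, adjusted p = 7.31e-09), Tcrg-C4 at 0.936, 1.4 and 0.977 CPM in Treg and 11, 29.3 and 20.3 CPM in Tconv (-4.19 ± 0.45) and Tcrg-C1 at 0.734, 1.13 and 1.01 CPM in Treg and 4.91, 21.8 and 12.8 CPM in Tconv (-3.78 ± 0.76). The delta constant gene Trdc was not called (3.44, 4.87 and 5.76 CPM in Treg and 6.7, 5.76 and 6.73 CPM in Tconv, -0.45 ± 0.25, adjusted p = 0.173). In all, 4 of 6 members tested were lower in Treg, against 19.2% of all genes. The gamma constant genes are near-identical copies and their reads could be split between them. CD8 genes were not called, with Cd8a at 1.32 CPM or less in every library and Cd8b1 between 13.4 and 17.8 CPM.

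The promoters of 3 genes far lower in Treg, chosen because a searched motif matches in them, are shown as 250-base windows before the RefSeq start (GRCm38.p6), read in the direction of transcription. Capitals mark the forkhead core TGTTTAC for Dapl1 and the RUNX core TGTGGT for Klrk1 and Xcl1, on either strand.
Dapl1 promoter, chr2:59484403-59484652, plus strand: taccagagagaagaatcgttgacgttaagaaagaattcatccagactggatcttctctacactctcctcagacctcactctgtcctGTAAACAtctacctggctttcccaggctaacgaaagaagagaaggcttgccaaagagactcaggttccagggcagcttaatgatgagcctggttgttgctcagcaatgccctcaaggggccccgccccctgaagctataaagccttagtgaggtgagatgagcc
Klrk1 promoter, chr6:129623865-129624114, minus strand: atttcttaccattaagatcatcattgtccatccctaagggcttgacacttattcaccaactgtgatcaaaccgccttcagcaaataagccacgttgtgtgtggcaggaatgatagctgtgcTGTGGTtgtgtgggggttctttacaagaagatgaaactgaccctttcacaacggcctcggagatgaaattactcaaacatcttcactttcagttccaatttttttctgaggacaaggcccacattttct
Xcl1 promoter, chr1:164935523-164935772, minus strand: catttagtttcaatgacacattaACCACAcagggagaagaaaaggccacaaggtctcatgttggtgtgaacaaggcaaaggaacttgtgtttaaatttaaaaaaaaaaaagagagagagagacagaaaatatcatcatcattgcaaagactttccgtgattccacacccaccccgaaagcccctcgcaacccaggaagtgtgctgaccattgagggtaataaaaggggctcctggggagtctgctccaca
The matches lie 164, 129 and 227 bases before the start. The TCF and LEF core CTTTGAT was in none of the 3 windows and none of the windows examined for Tcf7, Lef1 or Il7r, and it was held by 2.93% of the 12109 promoters, 2.65% of those of genes more than 2-fold higher and 3.56% of those more than 2-fold lower. The STAT element TTCNNNGAA was held by 7.38%, 8.6% and 7.44%. A match of these letters describes the window and does not show that a factor binds there.

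The other helper programmes were split, where 15.3% of all genes were higher and 19.2% lower. Of 8 type 2 genes tested, 2 were higher, 3 lower (2 without Treg control 1 or Tconv control 2, and with the block) and 3 not called. Il4 was at 0.0759, 0 and 0.135 CPM in Treg and 8.44, 11.3 and 7.03 CPM in Tconv (-7.02 ± 0.94), with Treg values near the floor and thus a fall of uncertain size. Cyp11a1, a steroid-synthesis enzyme, was at 3.06, 5.04 and 1.99 CPM in Treg and 0.446, 0.45 and 0.22 CPM in Tconv (3.20 ± 0.40). The median of this list was -0.44, or -0.21 with Il13, which had no count in Treg, at its bound. Its 5 members in the fit of genes of at least 5 CPM had a median of 0.366 in the main fit. In that other fit their median was 0.484, with 2 higher and 1 lower. Of 12 type 17 genes, 3 were higher and 6 lower, with a median of -1.35. That sign rests on members of low counts. The 8 members in the fit of genes of at least 5 CPM had a median of 0.307 in the main fit. In that other fit their median was 0.418, with 3 higher and 2 lower. The rises were Ahr, the aryl hydrocarbon receptor (88.6, 98.9 and 103 CPM in Treg and 37.8, 42.6 and 42.7 CPM in Tconv; 1.24 ± 0.15), Ccr6, the CCL20 receptor (1.46 ± 0.25), and Rora (0.94 ± 0.19). The cytokine genes Csf2 (-4.19 ± 0.59), Il17a (-2.36 ± 0.63), Il17f (-4.67 ± 0.96), Il21 (-4.91 ± 0.89) and Il22 (-4.82 ± 1.10) were lower in Treg.

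Follicular helper genes leaned towards Treg, with 8 of 13 higher and 2 lower, against 15.3% and 19.2% of all genes, and a median of 0.47. Icos and Cd200 led the rises by adjusted p and Il21, the cytokine that acts on germinal centre B cells, led the falls, at 0.405, 0.169 and 0.673 CPM in Treg and 4.51, 28.5 and 3.37 CPM in Tconv (-4.91 ± 0.89, adjusted p = 7.46e-05). Bcl6, the defining transcription factor of these cells, was not called (0.24 ± 0.22, adjusted p = 0.429).

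Components of T cell receptor signalling were mostly a little lower in liver Treg. Of 24, 18 were lower and 2 higher, against 19.2% and 15.3% of all genes, and 4 were not called, with a median of -0.50. Themis, a regulator of receptor signal strength, stood at 36.4, 38.7 and 41.1 CPM in Treg and 213, 214 and 188 CPM in Tconv (-2.40 ± 0.09, adjusted p = 2.37e-18). Ubash3b, a phosphatase that dampens the receptor signal, was higher, at 138, 178 and 153 CPM in Treg and 40.3, 45.2 and 50.9 CPM in Tconv (1.78 ± 0.16, adjusted p = 5.21e-10), as was Ptprc, encoding CD45 (0.32 ± 0.06).

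Immediate early and receptor response genes were mainly not called (14 of 20). Of the members, 5 were lower and 1 higher, against 19.2% and 15.3% of all genes. Library values did not overlap for 11 of the 20, against 43.6% of all genes. Egr2, a factor induced by receptor signals, was at 4.61, 5.69 and 6.16 CPM in Treg and 17.5, 13.3 and 11.8 CPM in Tconv (-1.37 ± 0.29, adjusted p = 0.000512), Dusp2, a phosphatase, at 253, 258 and 238 CPM in Treg and 451, 589.8 and 454 CPM in Tconv (-0.997 ± 0.24) and Myc at 97.9, 105 and 117 CPM in Treg and 82.2, 75.4 and 77.8 CPM in Tconv (0.45 ± 0.10). Egr2 and Dusp2 were lower and Myc was higher. Fos, a subunit of AP-1, did not overlap between the groups, at 702, 703 and 589 CPM in Treg and 985, 952 and 804 CPM in Tconv, and was not called (-0.46 ± 0.88, adjusted p = 0.732). The test estimates the spread of each gene over all 8 groups, not over control liver alone. These include control spleen libraries with Fos between 19.4 and 843 CPM. How far that spread kept members of this list from being called was not tested. With the sample number as a block, 8 members were called lower, and without Treg control 1, Treg control 2 or Tconv control 2, 3 were.

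Purine and cyclic AMP genes gave 4 of 14 higher and 3 lower, against 15.3% and 19.2% of all genes. The enzymes that make adenosine were higher: Nt5e, encoding CD73, stood at 491, 469 and 611 CPM in Treg and 147, 126 and 128 CPM in Tconv (1.97 ± 0.15, adjusted p = 3.53e-11), and Entpd1, encoding CD39, differed less (46.5, 72.8 and 67.6 CPM in Treg and 18.1, 45.8 and 19.7 CPM in Tconv; 1.15 ± 0.28, adjusted p = 0.00173). The phosphodiesterases Pde3b and Pde4d were lower, the latter at 49.6, 63.1 and 54.9 CPM in Treg and 124, 111 and 133 CPM in Tconv (-1.14 ± 0.15).

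Of 17 NF-kB components, 9 were higher and 3 lower, against 15.3% and 19.2% of all genes. Nfkb1, which encodes p105 and p50, was at 251, 210.4 and 201 CPM in Treg and 91.2, 93.4 and 107 CPM in Tconv (1.18 ± 0.11, adjusted p = 3.19e-09), Nfkbie, an inhibitor, at 157, 174 and 150.3 CPM in Treg and 86.9, 101 and 85.1 CPM in Tconv (0.82 ± 0.10), and Rel, encoding c-Rel, was higher too (1.17 ± 0.17). Map3k14, the NIK kinase of the noncanonical pathway, was lower, at 53.6, 51.4 and 52 CPM in Treg and 167, 168 and 191 CPM in Tconv (-1.74 ± 0.14, adjusted p = 7.39e-11). The remaining members called lower were Rela (-0.32 ± 0.08) and Nfkbib (-0.23 ± 0.08).

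Apoptosis and survival genes gave 8 of 17 higher (5 without Tconv control 3) and 5 lower, against 15.3% and 19.2% of all genes. Bcl2a1b, a survival factor of the BCL2 family, was at 77.6, 85.1 and 69.2 CPM in Treg and 156, 209 and 152 CPM in Tconv (-1.16 ± 0.14), although it has near-identical copies that could share its reads. Bcl2 (-1.04 ± 0.18) and Mcl1 (-0.80 ± 0.11) were lower as well, and so was the proapoptotic Bcl2l11, which encodes BIM (-0.77 ± 0.18).

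Of 24 cell cycle genes, 15 were higher in liver Treg and 2 lower, against 15.3% and 19.2% of all genes. The median was 0.76. Without Tconv control 1, 9 were higher. Mki67, encoding the proliferation antigen Ki-67, stood at 178, 184 and 199 CPM in Treg and 22.3, 59 and 53.2 CPM in Tconv (2.05 ± 0.33, adjusted p = 1.19e-05). Birc5, survivin, was at 71.8, 70.2 and 66 CPM in Treg and 19.6, 34.8 and 33.5 CPM in Tconv (1.24 ± 0.22), and Top2a, a topoisomerase, at 166, 184 and 162 CPM in Treg and 64.6, 85.9 and 87.1 CPM in Tconv (1.11 ± 0.20). Tconv control 1 was the lowest library for all 3. The lower members were Ccnd2, a G1 cyclin (-0.45 ± 0.09), and Pcna, the replication clamp (-0.50 ± 0.13).

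Metabolic lists held smaller differences, where 15.3% of all genes were higher and 19.2% lower. Of 19 fatty acid genes 7 were higher and 3 lower (5 lower without Treg control 2), led by the enzymes of triglyceride synthesis Dgat2, at 98.3, 146 and 82.5 CPM in Treg and 10.3, 6.99 and 9.97 CPM in Tconv (3.59 ± 0.33, adjusted p = 9.14e-10), and Dgat1, at 913, 946 and 834 CPM in Treg and 461, 446 and 337 CPM in Tconv (1.11 ± 0.15). Acadm, an enzyme of fatty acid oxidation, was lower (-0.89 ± 0.15). Of 20 cholesterol synthesis genes 7 were higher (13 in the fit of genes of at least 5 CPM) and 0 lower, among them the synthesis enzymes Ebp (0.56 ± 0.10) and Fdft1 (0.73 ± 0.14).

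Glycolysis genes were mostly not called (10 of 15), and 4 were higher (8 in the fit of genes of at least 5 CPM), among them Slc16a3, a lactate exporter, at 109.9, 127 and 107 CPM in Treg and 16.4, 15.4 and 13.4 CPM in Tconv (2.93 ± 0.24, adjusted p = 1.56e-10), Tpi1 (0.96 ± 0.15) and the glucose transporter Slc2a3 (0.61 ± 0.14). Of 18 oxidative phosphorylation genes 5 were lower and 0 higher (4 and 1 in the fit of genes of at least 5 CPM), by at most 0.47 on the log2 scale: Sdha was at 279, 324 and 335 CPM in Treg and 416, 473 and 416 CPM in Tconv (-0.47 ± 0.07, adjusted p = 8.91e-06), and the ATP synthase genes Atp5b (-0.42 ± 0.08) and Atp5c1 (-0.36 ± 0.09) came next. Among all genes 15.3% were higher and 19.2% lower. All 18 oxidative phosphorylation genes were in the fit of genes of at least 5 CPM. Of the 9838 genes with such a mean over the 6 libraries, 1691 were higher and 2948 lower in the main fit. The falls of this list were thus near the share for genes of its level.

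The interferon response list was mixed, with 9 of 21 higher, 5 lower (3 without Tconv control 2) and a median of 0.04. Of all genes 15.3% were higher and 19.2% lower. Ly6e, a GPI-anchored protein, was at 2041, 2042 and 1937 CPM in Treg and 1042, 1278 and 1165 CPM in Tconv (0.79 ± 0.08, adjusted p = 2.83e-09), Ifi27l2a at 479, 324 and 387 CPM in Treg and 157, 149.6 and 203 CPM in Tconv (1.22 ± 0.21) and Ifi203 at 201, 217 and 203 CPM in Treg and 137, 133 and 149.9 CPM in Tconv (0.56 ± 0.09). Irf7 (-0.72 ± 0.13), Isg15 (-0.68 ± 0.22) and Oasl2 (-1.51 ± 0.29) were lower in Treg.

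Per transcript length, the most abundant genes among those more than 2-fold apart were not the classical markers alone. In Treg they were, by mean TPM ± SD over 3 libraries with the Treg value first, Ifi27l2a (2915 ± 567 TPM against 1067 ± 159), S100a10 (2705 ± 375 TPM against 978 ± 188), Ctla4 (2036 ± 40 TPM against 226 ± 37.4), Dgat1 (1906 ± 165 TPM against 814 ± 164), Tnfrsf4 (1689 ± 159 TPM against 299 ± 47.2) and Samhd1 (1286 ± 97.2 TPM against 403 ± 19.5). S100a10 encodes an annexin A2 partner and Samhd1 a nucleotide-degrading restriction factor, and their log2 fold changes were 1.20 ± 0.13 and 1.52 ± 0.09. In Tconv they were, again with the Treg value first, Olfr1033 (4274 ± 865 TPM against 8389 ± 1646), Vps37b (1054 ± 141 TPM against 2629 ± 226), Ccr7 (1029 ± 179.5 TPM against 2036 ± 286), Ms4a4b (1105 ± 95 TPM against 1981 ± 84.1), Btg1 (681 ± 108 TPM against 1209.8 ± 164) and Prdx6 (461 ± 30.4 TPM against 1100.5 ± 49.3). Btg1 is an antiproliferative factor of quiescent T cells and Prdx6 a peroxidase, and their log2 fold changes were -1.04 ± 0.10 and -1.43 ± 0.10. Olfr1033 carries the name of an olfactory receptor, and reads of an overlapping gene cannot be told from its own without strand.

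**Figure D4:**
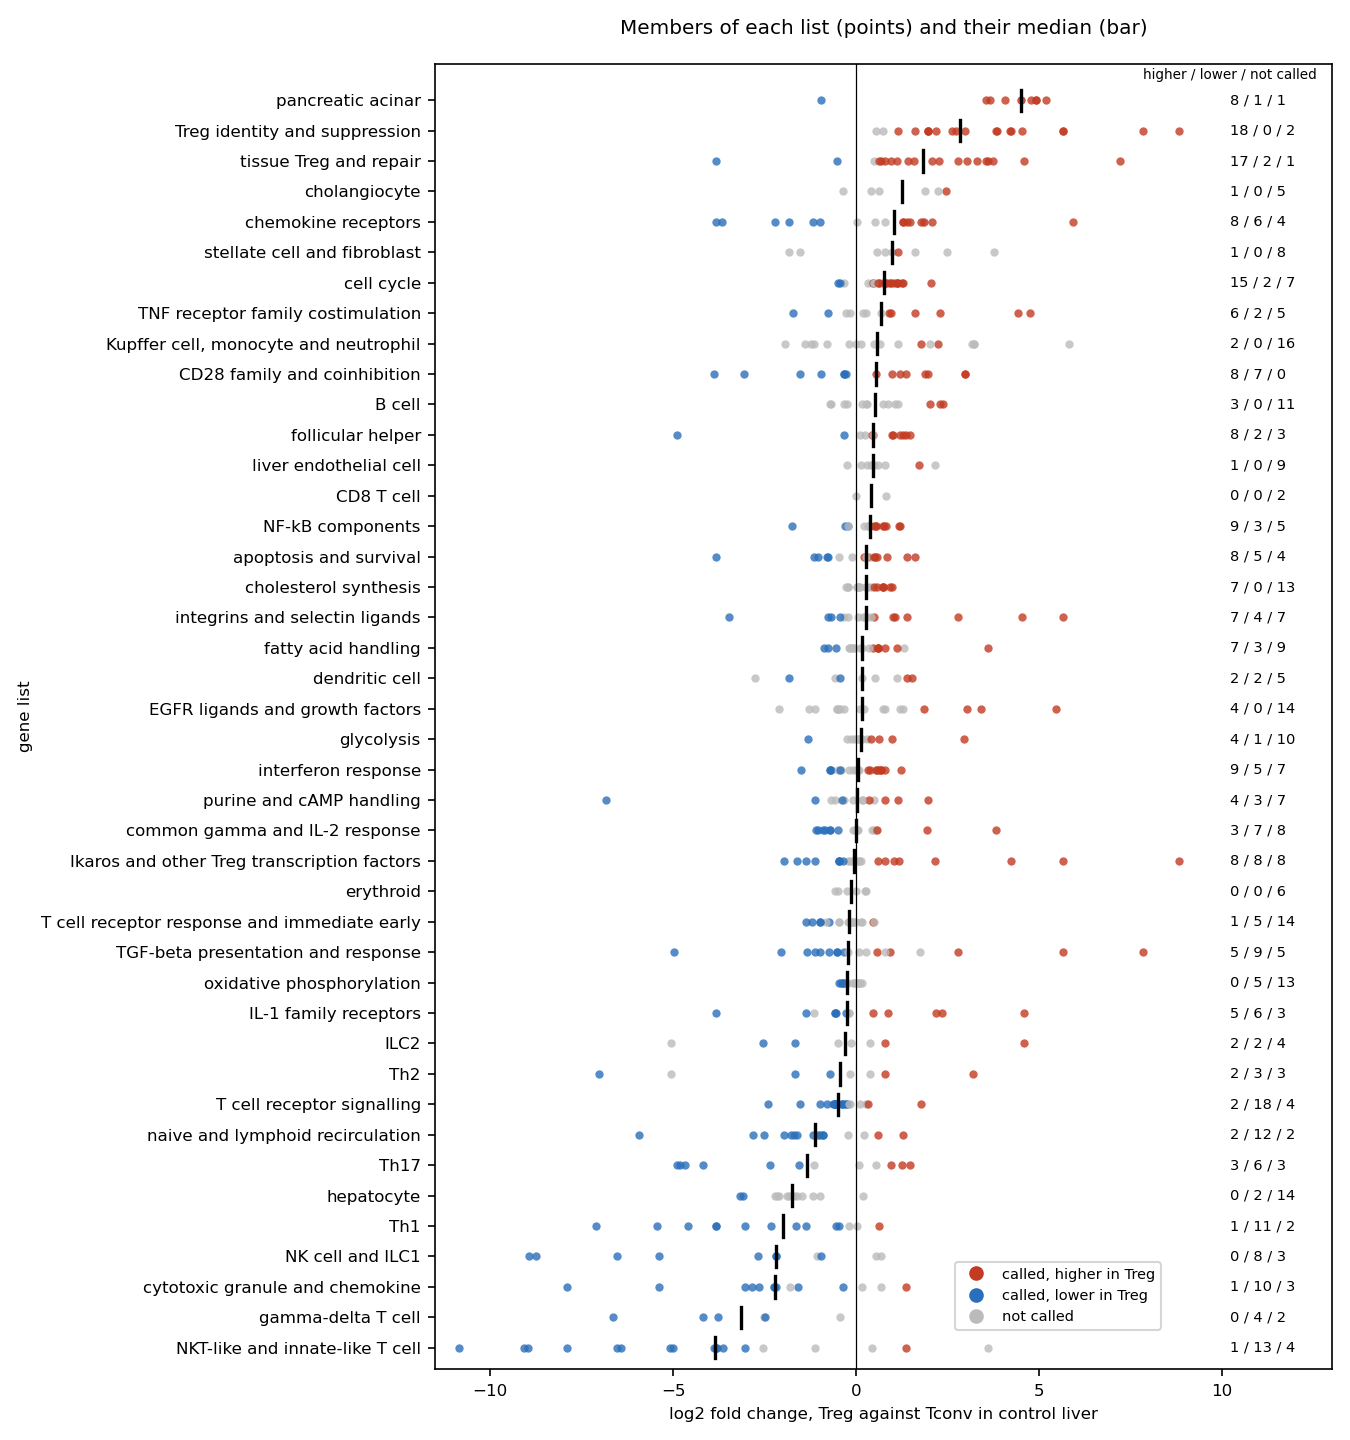
Each point is a gene placed by its log2 fold change of Treg against Tconv in control liver, red where called higher, blue where called lower and grey where not called; gene lists are ordered by their median (black bar), with the counts higher, lower and not called at the right. The pancreatic list at the top has rises that come from 1 Treg library; below it Treg identity (18 of 20 higher) has the highest median, and NKT-like genes (13 of 18 lower) have the lowest.

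Markers of other cells were examined for what the gate could hold besides CD4 T cells. The acinar enzymes Cela1, Cela2a and Prss2 were called higher in Treg, but Cela2a, for example, stood at 233, 0.0241 and 0.404 CPM in Treg and 5.72, 0.029 and 1.08 CPM in Tconv: the rise rests on Treg control 1. Of the 10 acinar genes tested, 8 were called higher with that library and 0 without it, where the log2 fold changes of Cela1, Cela2a and Prss2 turned to -0.41, -3.42 and -1.79. With the sample number as a block, 2 were called, and Cela2a (adjusted p = 0.168) and Prss2 (adjusted p = 0.0898) were not. The part of this RNA in the other results was not tested gene by gene. Without Treg control 1, 79.8% of the 5917 calls were made in the same direction and 4 were called in the opposite one. Leaving out any other of the 6 libraries kept 78.9% to 84.2%, so this share cannot show the part of acinar RNA.

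Hepatocyte transcripts were present in all libraries. The 16 markers summed to between 150.9 and 229.2 CPM in Treg and between 202.5 and 530.7 CPM in Tconv, ranges that overlapped. The median log2 fold change of the list was -1.76, and for 11 of the 16 every Tconv library lay above every Treg library, against 22.7% of all genes. Of the 16, 2 were called lower in Treg, whereas a fit of the 2 groups alone called 10 and limma-voom 9. The 2 were Cyp3a11 (2.3, 2.15 and 1.35 CPM in Treg and 27.9, 9.31 and 15.5 CPM in Tconv; -3.18 ± 0.91, adjusted p = 0.00823) and Cyp2e1 (4.76, 0.506 and 2.49 CPM in Treg and 34.3, 8.4 and 23.3 CPM in Tconv; -3.09 ± 1.02, adjusted p = 0.019). Cyp2e1 was not called without Treg control 2 (adjusted p = 0.0846), Treg control 3 (0.0574) or Tconv control 1 (0.0658). Apoa2, an apolipoprotein, was not called (-1.88 ± 0.75, adjusted p = 0.0529), but was with the sample number as a block (-1.69, adjusted p = 0.0334), in a fit of the 2 groups alone (0.0169), with limma-voom (0.0151) and without Tconv control 2 (0.0296). Albumin was not called (-1.18 ± 0.90, adjusted p = 0.33). The part of hepatocyte RNA in other genes higher in Tconv was not tested.

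B cell markers were called higher in 3 of 14 cases, where 15.3% of all genes were. Ighm, the immunoglobulin mu chain, was at 1809, 2337 and 1764 CPM in Treg and 466, 480.0 and 527 CPM in Tconv (2.00 ± 0.15, adjusted p = 2.09e-11), with Ighd (2.37 ± 0.33) and Cd79b (2.30 ± 0.36) also called, while Pax5 was at 0.269 CPM or less in every library. Without Ighm the list summed to between 95.5 and 255 CPM in Treg and between 132 and 263 CPM in Tconv. Most of that sum was Igkc, which reached 250 CPM and was not called (-0.34 ± 0.66, adjusted p = 0.737). No other remaining member passed 14.4 CPM. The myeloid list had 2 of 18 higher, Ccr2 (1.78 ± 0.26) and Itgam (2.24 ± 0.34), both also expressed by T cells. Without Ccr2 it summed to between 31.2 and 72.5 CPM in Treg and 13.7 and 37.6 CPM in Tconv, with the monocyte and neutrophil gene S100a8 at 2.53 CPM or less. Of 9 dendritic cell genes tested, 2 were higher and 2 lower, against 15.3% and 19.2% of all genes. In the endothelial list 1 of 10 was higher, in the stellate list 1 of 9 and in the biliary list 1 of 6, with 0 lower in each. Of 6 erythroid genes 0 were called. The stellate list summed to between 131.5 and 195 CPM in Treg and 63.6 and 81.6 CPM in Tconv, most of it Ecm1 (125, 147 and 180.1 CPM in Treg and 68.2, 58.9 and 78 CPM in Tconv), and the biliary list to between 28.2 and 70.1 CPM and 8.32 and 14.8 CPM, with Epcam higher (log2 fold change 2.46 ± 0.23). The ILC2 list, which includes Il1rl1 and Gata3, summed to between 537.9 and 596.2 CPM in Treg and 211.3 and 230.7 CPM in Tconv, with these 2 of 8 members higher and 2 lower (1 lower without Treg control 1, without Tconv control 2 or with the block). The part of such cells in the results was not tested.

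In control spleen the same cell types also differed, with 22.1% of genes called, and the test of the difference between the organs picked out 1122 genes (6.54%): 327 (1.91%) with a log2 fold change of Treg against Tconv that was higher in liver than in spleen and 795 (4.63%) with a lower one. The spleen controls were themselves uneven. Fos stood at 843 CPM in spleen Treg control 1 and 804 CPM in spleen Tconv control 1, but between 19.4 and 26.4 CPM in samples 2 and 3 of both. When those 4 libraries were left out, which was decided once their values had been seen and leaves 1 library in each spleen group assumed to vary like the rest, 52 genes were higher and 83 lower. The 5 genes of smallest adjusted p, described next, were called with and without them.

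Tnfsf11, which encodes the cytokine RANKL, changed direction between the organs. In liver it was at 10.8, 13.7 and 11.2 CPM in Treg and 71.1, 70.9 and 56.6 CPM in Tconv, -2.47 ± 0.18 on the log2 scale, and in spleen the log2 fold change was 1.21 ± 0.18, a difference of -3.68 ± 0.25 (adjusted p = 1.69e-10). Bcl2a1b also turned, from 1.07 ± 0.14 in spleen to -1.16 ± 0.14 in liver (difference -2.23 ± 0.20, adjusted p = 4.33e-08). Tent5a, a poly(A) polymerase, went from -0.53 ± 0.16 in spleen to 2.25 ± 0.16 in liver, where it was at 294, 319.8 and 229 CPM in Treg and 58.4, 57.8 and 61 CPM in Tconv (difference 2.78 ± 0.22, adjusted p = 2.1e-09). Chd7, a chromatin remodeller, overlapped between liver Treg and Tconv, at 364, 376 and 322 CPM in Treg and 378, 374 and 360.4 CPM in Tconv (-0.07 ± 0.10, adjusted p = 0.642), and was lower in spleen Treg than in spleen Tconv (-1.87 ± 0.10; difference 1.81 ± 0.14, adjusted p = 1.34e-09).

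Several genes known from Treg separated the cells less in liver than in spleen. Tnfrsf4 went from 4.43 ± 0.17 in spleen to 2.29 ± 0.16 in liver (difference -2.14 ± 0.22, adjusted p = 3.27e-07). Il2ra went from 6.13 ± 0.31 to 3.81 ± 0.28 (difference -2.32 ± 0.36, adjusted p = 0.000172) and Ctla4 from 4.40 ± 0.21 to 2.97 ± 0.20 (difference -1.44 ± 0.26, adjusted p = 0.00111). In the list of Treg identity, 8 of 20 members had a lower log2 fold change in liver, against 4.63% of all genes, and 0 a higher one. Without spleen samples 2 and 3, 2 of the 20 were called lower, and the adjusted p of the difference rose to 0.0555 for Il2ra and 0.0675 for Ctla4, at differences of -2.23 and -1.08.

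Part of the cytotoxic and innate-like lists also had lower log2 fold changes in liver than in spleen, where 4.63% of all genes did. This was called for 7 of 14 cytotoxic genes, 5 of 14 type 1 genes, 6 of 18 NKT-like genes and 3 of 6 gamma-delta genes. Without spleen samples 2 and 3 it was called for 2, 0, 2 and 2 of them, and for 83 of all 17159 genes. Serpinb9 had log2 fold changes of 0.34 ± 0.21 in spleen and -2.67 ± 0.22 in liver (difference -3.00 ± 0.31, adjusted p = 3.45e-07), and Tcrg-C2 of 0.03 ± 0.52 and -6.64 ± 0.67 (difference -6.67 ± 0.83, adjusted p = 8.53e-06). Both were also called without spleen samples 2 and 3 (adjusted p = 0.00143 and 0.00902). Xcl1 went from -3.38 ± 0.76 to -7.90 ± 0.89 (difference -4.53 ± 1.17, adjusted p = 0.0178), but without those libraries its difference was -1.55 (adjusted p = 0.947).

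Areg and Il1rl1 did not pass the test of a difference between organs. The Areg log2 fold change was 3.58 ± 0.62 in spleen and 3.03 ± 0.42 in liver (adjusted p of the difference = 0.769), and that of Il1rl1 3.29 ± 0.36 and 4.59 ± 0.35 (adjusted p = 0.101). Itgav did differ, at 1.23 ± 0.17 in spleen and 2.78 ± 0.18 in liver (difference 1.56 ± 0.24, adjusted p = 0.00013). The difference for Dapl1, -1.23 ± 0.42, was called only with the sample number as a block (adjusted p = 0.0778 without it and 0.0346 with it), as was that of Ikzf4 (0.159 and 0.0386).

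After CCl4 the liver cell types differed at 44.7% of genes, and 625 genes (3.64%) had a log2 fold change of Treg against Tconv that was called different from that in control liver, 303 (1.77%) higher and 322 (1.88%) lower in control. After CCl4 21.4% of genes were higher in Treg and 23.3% lower, and in control spleen 11.4% and 10.7%. The CCl4 groups held 5 libraries each and the control groups 3. Larger groups call more genes at equal differences, so these shares do not compare the sizes of the differences. This comparison and that with spleen use the same control liver libraries. The naive programme accounted for the clearest group: 12 of its 16 members had a higher log2 fold change in control liver, against 1.77% of all genes, and 0 a lower one. Tcf7 had a log2 fold change of -2.83 ± 0.11 in control liver and -4.34 ± 0.09 in CCl4 liver (difference 1.5 ± 0.13, adjusted p = 8.27e-09). Ccr7 had -1.18 ± 0.20 and -2.29 ± 0.16 (difference 1.11 ± 0.25, adjusted p = 0.00741).

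Ms4a4b, a membrane protein of T cells, stood at 649, 637 and 622 CPM in Treg and 1344, 1375 and 1359.9 CPM in Tconv in control liver, -1.10 ± 0.11 on the log2 scale against -2.76 ± 0.09 in CCl4 liver (difference 1.66 ± 0.13, adjusted p = 5.65e-09). Evl, an actin regulator, stood at 88.4, 88.2 and 111 CPM in Treg and 239, 246 and 272 CPM in Tconv, -1.40 ± 0.10 against -2.95 ± 0.08 (adjusted p = 5.65e-09). Gpr83 was a stronger Treg gene in control than in CCl4 liver, at 3.84 ± 0.20 and 1.30 ± 0.14 (difference 2.54 ± 0.23, adjusted p = 3.42e-08).

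Pcyt1a, the enzyme that limits phosphatidylcholine synthesis, was a weaker Treg gene in control liver, where it stood at 70.9, 101 and 73.6 CPM in Treg and 22.1, 23.8 and 21.9 CPM in Tconv, with 1.86 ± 0.19 in control and 4.62 ± 0.17 in CCl4 liver (difference -2.76 ± 0.24, adjusted p = 1.35e-08). Gata3 likewise had 0.79 ± 0.13 in control and 2.18 ± 0.10 in CCl4 liver (difference -1.39 ± 0.16, adjusted p = 3e-06). The Foxp3 gap was smaller in control liver (difference -1.25 ± 0.26, adjusted p = 0.00407), where Tconv held 2.26 ± 0.912 CPM (SD, n = 3) against 0.976 ± 0.245 CPM (SD, n = 5) after CCl4. Areg (3.03 ± 0.42 and 3.19 ± 0.33, adjusted p of the difference = 0.943) and Il1rl1 (4.59 ± 0.35 and 5.21 ± 0.28, adjusted p = 0.501) did not pass this test.

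**Figure D5:**
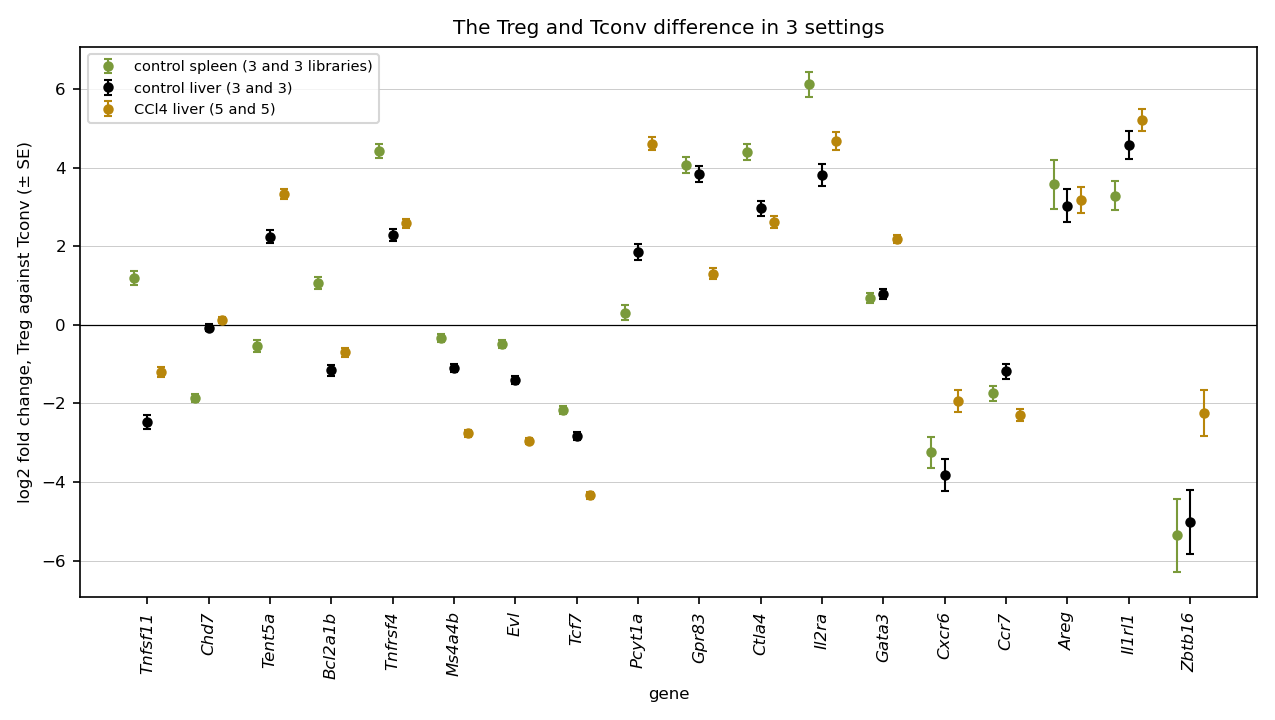
Log2 fold changes of Treg against Tconv with their SE (bars) for 18 genes, in control spleen (green, 3 and 3 libraries), control liver (black, 3 and 3) and CCl4 liver (ochre, 5 and 5), which share no library. Tnfsf11, Tent5a and Bcl2a1b lie on opposite sides of 0 in spleen and liver, Il2ra, Ctla4 and Tnfrsf4 lie higher in spleen, and Tcf7, Evl and Ms4a4b lie lowest after CCl4.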

How the data were processed

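RNA from sorted cells was extracted with Trizol and a Qiagen kit, and libraries were made with the Clontech Ultra Low v4 and NexteraXT kits, per the labels' protocols. Per the submitters' processing notes the tools were bcl2fastq 2.19, kallisto 0.44.0 and DESeq2, with the build GRCm38.p6. The sources used here give neither the annotation release nor the strand setting. The deposited tables hold, per the file headers, an estimated count for each of 118489 transcripts, which is not a whole number, its TPM, and the effective length that enters the TPM.

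Estimated counts were summed to genes with GENCODE M21 names, which matched 98.5% of transcripts to 35968 genes, and the 1761 unmatched transcripts held between 0.704% and 0.755% of the counts of the 6 libraries. Sums were rounded, filtered by filterByExpr to 17159 genes, scaled by TMM (factors 0.923 to 1.061) and fitted with edgeR 4.0.16 in R 4.3.3 as 1 quasi-likelihood model of all 8 groups (24 residual degrees of freedom). The SE was taken from the F statistic, as log2 fold change over its root, and is unreliable near the floor of 3 counts per library (0.0831 CPM on average in Treg). Libraries held 25996377 to 75292019 counts, and the floor covers counting error only.

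Named genes are the 12 largest rises and falls among called genes of at least 5 CPM whose values did not overlap, 19 genes fixed by symbol, up to 3 members of smallest adjusted p per list, the 6 most abundant genes more than 2-fold apart in each cell type, and the 5 of smallest adjusted p per difference. Predicted, ribosomal, mitochondrial and receptor-segment genes were left out of the ranked choices. Any other gene in the text was picked with its values in view. The members and lists were chosen with earlier results of these data known.

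Same-numbered Treg and Tconv libraries deviated together (correlations 0.439, 0.339 and 0.152, other pairs between -0.425 and 0.108), so a fit with the number as a block was used as an alternative. Others were DESeq2 1.42.0 and its size factors, limma-voom (limma 3.58.1), other filters, length offsets, stricter thresholds, deposited TPM, a fit of the compared groups alone, and leaving out each library. Steps were tested on simulated data. Promoter sequences come from RefSeq (GRCm38.p6).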

Additional observations from a re-analysis of the deposited data

Results flagged for a closer look

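The difference between Treg and Tconv was itself different in control liver and control spleen for 46 of the 131 named genes, by the interaction test of edgeR with Benjamini-Hochberg adjustment. They include 19 of the 58 genes named by symbol, size of change, abundance or difference, given here with the 3 list members whose difference is described above. Values are log2 fold changes in liver minus those in spleen. Higher in liver were Ednrb (4.72, adjusted p = 0.0045), Tent5a (2.78), Itgav (1.56), Chd7 (1.81), Pcyt1a (1.55) and Dgat1 (0.699, adjusted p = 0.039). Lower in liver were Tcrg-C2 (-6.67), Xcl1 (-4.53), Tnfsf11 (-3.68), Pxdc1 (-3.59), Il12rb2 (-3.47), Serpinb9 (-3.00), Il2ra (-2.32), Bcl2a1b (-2.23), Tnfrsf4 (-2.14), Hs3st3b1 (-1.88), Ctla4 (-1.44), Evl (-0.921), Ms4a4b (-0.77), Tcf7 (-0.662), Btg1 (-0.661) and Prdx6 (-0.599). Without the spleen controls numbered 2 and 3, Tnfsf11, Chd7, Tent5a, Bcl2a1b, Tnfrsf4, Itgav, Serpinb9 and Tcrg-C2 were still called and the other 14 were not. With the sample number as a block, Hs3st3b1 was not called (adjusted p = 0.0435 without the block and 0.0522 with it).

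Between control and CCl4 liver the same test called 27 of the 131 named genes, among them 16 of the 58, with values given as control minus CCl4. Higher in control were Gpr83 (2.54), Dapl1 (2.38), Ms4a4b (1.66), Evl (1.55), Tcf7 (1.5), Ccr7 (1.11) and Samhd1 (0.665). Lower in control were Xcl1 (-3.45), Pxdc1 (-3.37), Pcyt1a (-2.76), Frmd5 (-2.25), Cxcr6 (-1.89), Gata3 (-1.39), Tnfsf11 (-1.28), Foxp3 (-1.25) and Tent5a (-1.09). Frmd5 was at the threshold (adjusted p = 0.0498) and was not called with the block (0.0928). The liver Tconv control 2 library was highest for Xcl1, Pxdc1 and Cxcr6, and its part in these values was not tested.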

How the results depend on the processing

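Of 131 named genes under 14 settings (1815 pairs), 1783 values kept their direction and their side of the threshold, 12 turned, 12 lost the call and 8 gained it, and 125 genes kept their direction in all settings. Of the 5917 calls, 67.4% (at least 5 CPM, where fewer genes are tested) to 97.2% (DESeq2) were made again in the same direction. An adjusted p under 0.01 gave 1694 genes higher, and a change of more than 2-fold gave 1422 higher and 846 lower. Leaving out single libraries gave 2136 to 2362 higher and 2756 to 3105 lower.

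The block by sample number gave 2608 higher and 3426 lower in control liver, 393 and 1036 for the difference from spleen, and 382 and 381 for the difference from CCl4 liver. Besides those already given, it ended the call of the difference from spleen for Il4 (adjusted p 0.0372 to 0.0947) and gained the call for the difference from spleen of Olfr1033, Ahr, Dusp2, Slc16a3 and Atp5b, and from CCl4 liver of Lef1 (0.14 to 0.0347), Olfr1033, Fasl, Cd200, Tnfrsf18 and Top2a. It changed no other call of the named genes in these comparisons.

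The counts of differences were less stable, and the cause was not tested. For spleen, a filter of at least 5 CPM gave 495 higher, a fit of the 4 groups alone 202 higher and 433 lower, DESeq2 560 higher, and leaving out the spleen controls numbered 2 and 3 gave 52 higher and 83 lower. Leaving out single libraries gave 203 to 317 higher and 444 to 870 lower: 457 lower without spleen Treg 1, 203 and 518 without spleen Treg 3, 214 and 444 without spleen Tconv 2, 210 and 446 without spleen Tconv 3, and 515 lower without liver Tconv 3. For CCl4 liver, a fit of those groups alone gave 180 higher and 192 lower and DESeq2 503 higher, and leaving out single libraries gave 234 to 340 higher and 210 to 337 lower, the 210 without liver Treg control 1.

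Directions turned for genes that were not called and for acinar genes. Chd7 was 0.04 (0.0412) with at least 5 CPM. Egfr was -0.719 with length offsets and -0.06 (-0.06408) with voom, and between -0.1994 and 0.4564 without single libraries. Cxcr3 lay between -0.1687 and 0.2525. Without single libraries Cela1 lay between -0.4141 and 4.322, Cela2a between -3.419 and 7.164 and Prss2 between -1.785 and 6.868, the lowest values being those without Treg control 1. With 3 libraries a group, genes at the floor of 3 counts have wide errors.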

Other observations

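Some further genes of the lists, chosen after their values were seen, had large differences that the rule for named genes left out. Tff1, a trefoil peptide of mucosal repair, was at 2.43, 3.4 and 1.25 CPM in Treg and 0, 0.029 and 0 CPM in Tconv (7.21 ± 1.29 on the log2 scale, adjusted p = 7.05e-05, edgeR). Pparg, a nuclear receptor of adipose tissue Treg, was at 13.4, 19.1 and 13.5 CPM in Treg and 0.852, 1.97 and 0.476 CPM in Tconv (3.74 ± 0.54, adjusted p = 2.99e-06). Tnfrsf8, which encodes CD30, was at 12, 17.9 and 15.8 CPM in Treg and 0.0812, 1.15 and 0.238 CPM in Tconv (4.76 ± 0.62, adjusted p = 5.9e-07), and Dusp4, a MAP kinase phosphatase, at 319, 397 and 357 CPM in Treg and 34.7, 45.3 and 28 CPM in Tconv (3.31 ± 0.39, adjusted p = 1.05e-07). All 4 genes lay in separate ranges in the 2 cell types. Tff1 was under the floor in Tconv, so the size of its rise is uncertain.

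Among genes of Tconv, Il2 was at 0.101, 0 and 0 CPM in Treg and 4.71, 6.41 and 4.88 CPM in Tconv (-7.10 ± 1.06, adjusted p = 4.8e-06) and Itga1, the collagen-binding CD49a chain of resident lymphocytes, at 4.18, 1.54 and 3.17 CPM in Treg and 25.8, 55.2 and 17.7 CPM in Tconv (-3.48 ± 0.68, adjusted p = 0.000184). Il2 was near or under the floor in Treg, so the size of its fall is uncertain. Tgfbr3, which presents TGF-beta to its receptor, was at 5.16, 1.33 and 4.98 CPM in Treg and 114, 92.7 and 149.5 CPM in Tconv (-4.97 ± 0.37, adjusted p = 1.93e-11). The Ikzf2 transcript with the largest share of the gene's TPM was Ikzf2-205, annotated as a retained intron, with 59.9% in Treg and 38.5% in Tconv on average, a difference that was not tested.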
